A study of Mus musculus with 2 samples.

Results

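The 9 genes described here encode transcription factors and cofactors that mark or specify fat lineages: Prdm16, the early B-cell factors Ebf1, Ebf2 and Ebf3, Zic1, Lhx8, Tbx15, Meox2 and Eya1. They were chosen by gene name among the array's non-control spots, and 17 of the 41174 gene probes on each array carry one of these names, 1 spot for every probe. Across all probes, 19504 genes could be named. RNA came from PKGI knockout mice (KO), without the kinase that cGMP activates and Prkg1 encodes, and from wild type littermates (WT), all of the C57BL/6N background, with neither age nor sex in the labels. On the tissue array, brown adipose tissue of an untreated KO mouse (Cy5) was set against that of a WT littermate (Cy3), and on the adipocyte array, brown adipocytes grown in culture out of KO precursor cells (Cy3) were set against those of a WT littermate (Cy5). These 4 RNA samples on 2 two-colour arrays are all that was analysed here, so each comparison has 1 array, no replicate array and no repeat with the dyes swapped. No test was possible and no p-value is given, the number of arrays limits the precision, and on either array genotype and dye cannot be told apart for a single probe.

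Brown fat burns fuel for heat, and in the mouse much of it shares an embryonic origin with skeletal muscle and dermis of the back. Prdm16 is a zinc finger cofactor that, with C/EBP-beta, PPAR-gamma and PGC-1 proteins, switches on brown fat genes and holds down muscle and white fat genes. Ebf2 marks brown precursor cells and brings PPAR-gamma to brown fat genes, whereas Ebf1 and Ebf3 are its paralogs with broader roles in fat, marrow and nerve cells. Zic1 (a zinc finger factor of the dorsal neural tube and somites) and Lhx8 (a LIM homeodomain factor) are widely used as markers of classical brown fat, Eya1 is a transcriptional coactivator and phosphatase of early muscle and brown fat, Tbx15 is a T-box factor of fat and fast muscle, and Meox2 is a homeodomain factor of somites and vessels.

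Values are log2 ratios of KO over WT after background correction and intensity-dependent (loess) normalisation within the array, and levels are normalised log2 signals of single channels. Probes differ in how brightly they read, so levels are compared between RNA samples for 1 probe and never between probes. As a measure of technical error, repeat spots of other probes varied with a pooled log2 SD of 0.0979 in tissue (over 185 probes) and 0.0899 in culture (over 193 probes). This covers spot-to-spot error within an array only. A difference of at least 2-fold (1 on the log2 scale) was counted, without a test. A ratio of 0 is the centre of all gene spots, and centring on the spiked-in controls instead lowers every ratio by 0.84 in tissue and 0.22 in culture.

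The arrays stood apart in ways that touch these genes. Prkg1, the targeted gene, had log2 ratios of -1.29 and -1.22 in tissue and -0.94 and -2.31 in culture on the 2 probes read clearly in both channels. Of its other probes 1 was not well above background in any RNA (-0.07 on both arrays) and 1 was well above it in KO alone (0.01 in tissue and 0.17 in culture), and whether any probe lies in the deleted part is not stated. Markers of sex did not all match within either pair. In tissue, Xist was higher in KO (7.72 and 3.89 on its probes measured in both channels) and the Y-linked Ddx3y lower (-4.48), and Eif2s3y and Kdm5d were not well above background in KO. In culture Xist was lower in KO (-5.26, -4.72, -1.92 and -1.53), with the Y-linked Eif2s3y (-0.12), Kdm5d (0.07) and Ddx3y (0.40 and 0.82) well above background in both RNA samples. Sex and genotype therefore cannot be told apart in the tissue pair. In the culture pair Xist, like these Y-linked genes, was well above background in both RNA samples, so the sex make-up of each is not settled. The difference in Xist there cannot be told apart from genotype either. Brown fat was represented in both tissue RNA samples by Ucp1, Cidea and Cox7a1 signals above background. These genes were also well above background in both culture RNA samples, but Ucp1 was far lower in KO adipocytes than in WT adipocytes (-3.78). Of the other thermogenic genes listed, Elovl3, Otop1 and Adrb3 were well above background in WT adipocytes alone, and Bmp8b and Slc27a2 in neither. How far the KO culture held brown fat cells was not tested.

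All 9 genes were detected in all 4 RNA samples by at least 1 probe, as were 65.0% of all named genes. Of the 17 probes, 16 were well above background in KO tissue and 16 in WT tissue, against 73.6% and 62.1% of all probes in those samples. In culture 16 were well above background in KO adipocytes and 16 in WT adipocytes, against 67.7% and 69.7% of all probes. The exceptions were the dim probe of Eya1 in both tissue samples, the dim probe of Ebf3 in KO adipocytes and the dim probe of Meox2 in WT adipocytes. The plot of signals by sample shows how the 4 RNA samples order for every probe.

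**Figure D1:**
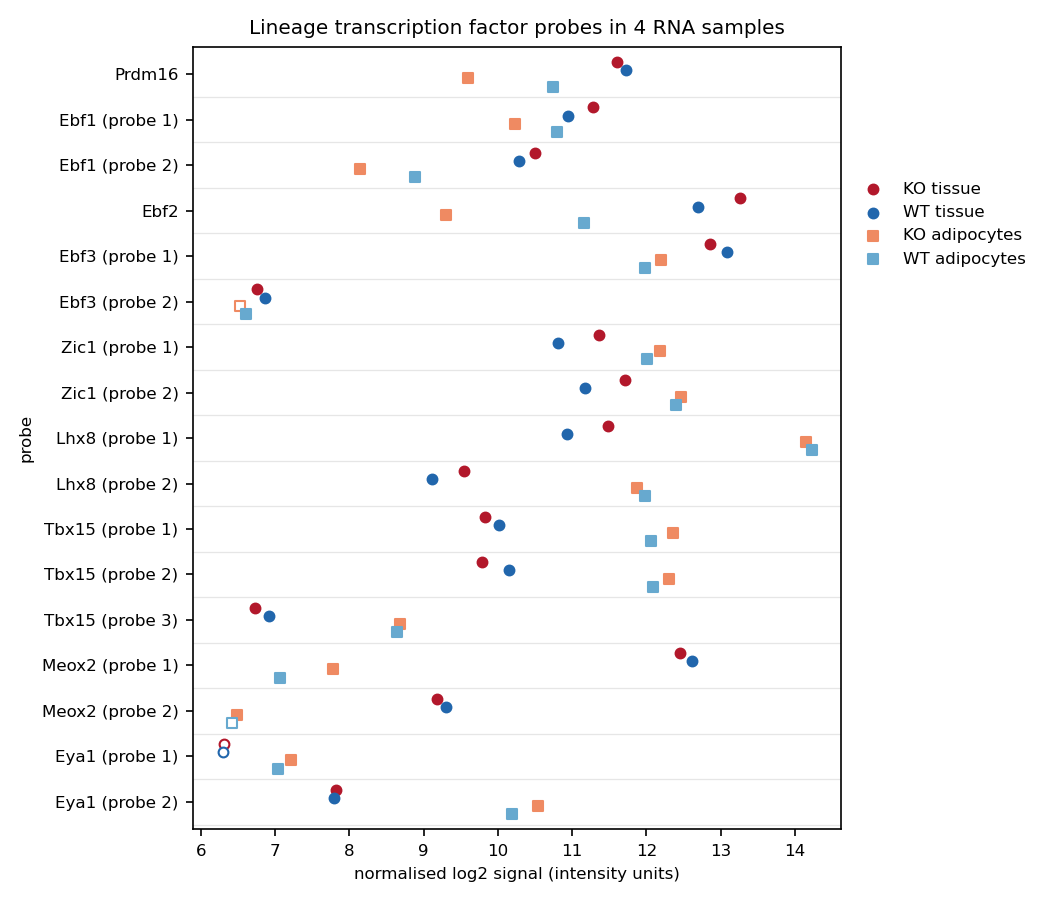
Normalised log2 signal (x axis, intensity units) of each of the 17 probes (y axis) in KO and WT tissue (circles) and KO and WT cultured adipocytes (squares), 1 array channel per point, with open symbols where the channel was not well above background. Tissue and culture lie far apart for Meox2, Lhx8, Tbx15, Ebf2 and the brighter Eya1 probe, among others. KO and WT adipocytes lie far apart for Ebf2 and Prdm16.

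In tissue none of the 16 probes kept (well above background in at least 1 channel) differed by 2-fold. Among all kept probes 2.44% passed 2-fold on the lower side in KO and 0.926% on the higher side. Their log2 ratios ran from -0.36 to 0.57 with a median of -0.04, against 0.02 over all kept probes, and 8 of the 16 were below 0. In culture 2 of 17 probes, those of Ebf2 and Prdm16, passed 2-fold on the lower side in KO and none on the higher side, where 3.89% of all kept probes were lower and 2.07% higher. The culture ratios ran from -1.87 to 0.71 with a median of 0.06, against -0.02 over all kept probes. Within 0.5 of 0 on the log2 scale lay 12 of 16 member probes in tissue and 12 of 17 in culture, beside 84.3% and 77.9% of all kept probes.

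**Figure D2:**
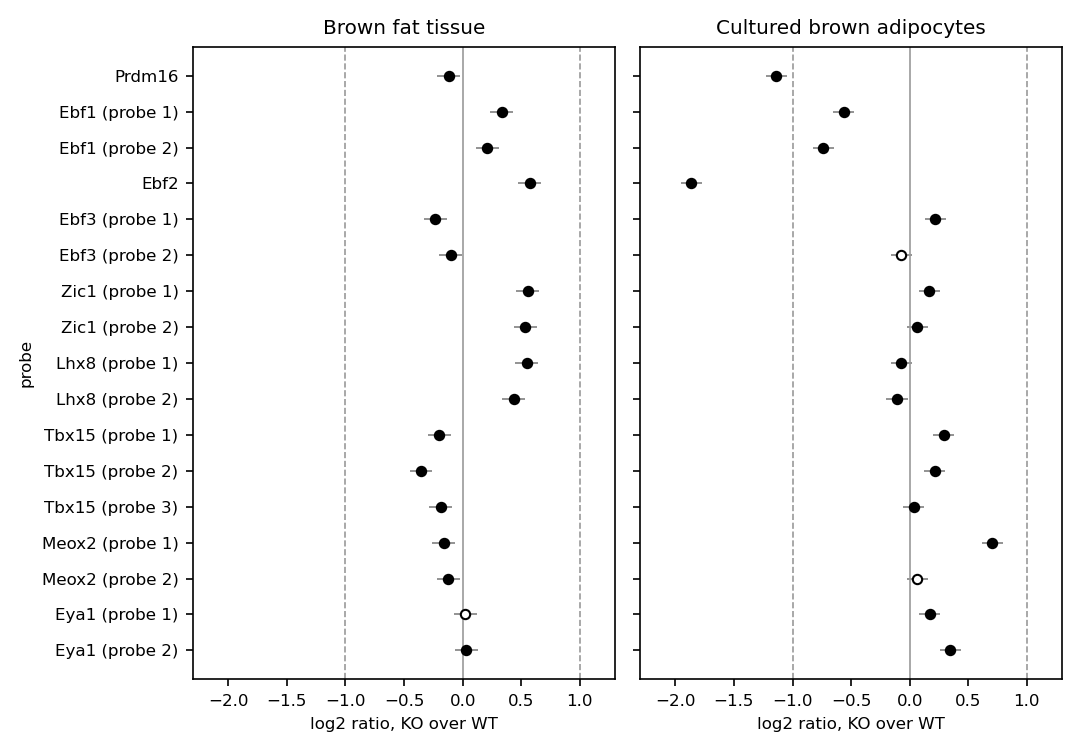
Log2 ratio of KO over WT (x axis) for each of the 17 probes (y axis) on the tissue array (left) and the adipocyte array (right). Bars are the pooled SD between spots of one probe on that array (0.0979 and 0.0899), dashed lines mark 2-fold, and open points have a channel not well above background. Ebf2 (-1.87) and Prdm16 (-1.14) in culture lie beyond the dashed lines, and no tissue probe does.

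Prdm16 was read by 1 probe, whose annotated position on chromosome 4 spans only the 5 bases 153309834 to 153309838 (the build of these positions being not given in the sources used here). Its log2 signal was 11.61 in KO tissue and 11.72 in WT tissue, a log2 ratio of -0.12, which turned to 0.43 without loess and 0.10 with outlier-flagged spots kept. In culture it was 9.60 in KO adipocytes and 10.74 in WT adipocytes. KO adipocytes thus had the lowest of the 4 signals, 2.20-fold below WT (log2 ratio -1.14), and the ratio ran from -1.56 to -1.12 over 7 other ways of processing. Of all kept culture probes, 3.01% were lower.

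Ebf2 showed the widest KO to WT gap of the 9 genes. Its single probe (chromosome 14, 62289529 to 62289588) had a log2 signal of 13.27 in KO tissue and 12.69 in WT tissue. In culture the signals were 9.30 in KO adipocytes and 11.17 in WT adipocytes, so that the genotypes ran in opposite orders in tissue and culture. The culture ratio of -1.87 is 3.65-fold lower in KO, ran from -2.29 to -1.87 over the same 7 alternatives, and had 0.90% of kept probes below it. The tissue ratio of 0.57 (1.49-fold) lay above 95.4% of kept probes, and it depended on the scaling, being 1.17 without loess and -0.27 when ratios were centred on the spiked-in controls. The mean signal was 14.6 times the local background in KO adipocytes and 102 times in WT adipocytes, so neither channel was near the detection limit.

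Ebf1 was on the same side as Ebf2 on both arrays with smaller ratios. Its probe 1 (chromosome 11, 44961616 to 44961675) had log2 signals of 11.28 in KO tissue and 10.94 in WT tissue, and of 10.24 in KO adipocytes and 10.80 in WT adipocytes. Probe 2 (chromosome 11, 44605869 to 44605928) had 10.49 in KO tissue and 10.29 in WT tissue, and 8.14 in KO adipocytes and 8.88 in WT adipocytes. On both probes KO adipocytes were the lowest of the 4 samples. The ratios were 0.33 and 0.21 in tissue, turning to -0.51 and -0.64 with spike-in centring, and -0.56 and -0.74 in culture, where they stayed below 0 under all 7 alternatives (-1.10 at the lowest). The mean of -0.65 in culture is 1.57-fold lower and did not reach 2-fold.

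Ebf3 did not share that pattern. On its bright probe (chromosome 7, 133598703 to 133598762) the log2 signals were 12.86 in KO tissue and 13.09 in WT tissue, against 12.20 in KO adipocytes and 11.99 in WT adipocytes. The ratios were -0.23 in tissue (0.36 without loess and -1.08 with spike-in centring) and 0.22 in culture (-0.19 without loess and just below 0 with spike-in centring). Its dim probe (chromosome 7, 133601016 to 133601075) read close to background everywhere, at 6.76 in KO tissue, 6.86 in WT tissue, 6.53 in KO adipocytes and 6.61 in WT adipocytes, and carries little weight. The fourth paralog, Ebf4, had -0.02 in tissue and 0.10 in culture. Its signals were also close to background, at 6.60 in KO tissue, 6.62 in WT tissue, 6.45 in KO adipocytes and 6.35 in WT adipocytes. Its 2 kept probes read -0.29 and 0.26 in tissue.

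Promoter sequence was looked at because Prdm16 and Ebf1 were lower together with Ebf2 in KO adipocytes and Ebf3 was not. RefSeq (GRCm38.p6) gave the 250 bases before a transcription start for 7 starts of 6 of the 9 genes, namely Prdm16, Ebf1, Ebf3, Zic1, Lhx8 and Meox2. The windows of the 3 genes read from it, Ebf1 with 2 annotated starts, are printed 5′ to 3′ on the gene's strand, with capitals marking any match to the core of the EBF consensus, CCCNNGGG.
Prdm16, chr4:154636874-154637123, minus strand: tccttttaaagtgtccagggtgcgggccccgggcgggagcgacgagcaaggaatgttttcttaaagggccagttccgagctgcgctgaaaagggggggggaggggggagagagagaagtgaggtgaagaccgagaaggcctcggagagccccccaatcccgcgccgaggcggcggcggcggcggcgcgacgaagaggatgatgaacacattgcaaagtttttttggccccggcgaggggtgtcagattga
Ebf1, chr11:44617850-44618099, plus strand: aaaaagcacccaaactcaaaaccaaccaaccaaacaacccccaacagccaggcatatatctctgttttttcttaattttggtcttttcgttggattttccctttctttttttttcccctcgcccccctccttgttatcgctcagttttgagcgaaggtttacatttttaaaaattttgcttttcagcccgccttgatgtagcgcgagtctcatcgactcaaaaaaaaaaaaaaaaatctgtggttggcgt
Ebf1, chr11:44619978-44620227, plus strand: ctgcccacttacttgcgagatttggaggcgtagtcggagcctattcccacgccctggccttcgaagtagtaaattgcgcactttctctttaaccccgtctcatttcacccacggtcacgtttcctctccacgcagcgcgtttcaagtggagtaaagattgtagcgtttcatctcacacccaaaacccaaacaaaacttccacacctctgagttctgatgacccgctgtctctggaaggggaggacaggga
Ebf3, chr7:137314446-137314695, minus strand: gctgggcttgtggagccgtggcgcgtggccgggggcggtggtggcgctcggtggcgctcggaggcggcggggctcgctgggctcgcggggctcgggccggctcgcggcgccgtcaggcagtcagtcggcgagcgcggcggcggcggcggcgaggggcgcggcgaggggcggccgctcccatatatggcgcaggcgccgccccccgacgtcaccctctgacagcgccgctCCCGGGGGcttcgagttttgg
The core reads the same on both strands and was present in 11.8% of all 32851 windows of this length, and in 1 of the 7 member windows, that of Ebf3. The same core flanked by T before it and A after it was in 0.779% of all windows and in none of the 7. A match is a run of letters and not a measured binding site, and its lack in 250 bases leaves the rest of the locus unread.

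Zic1 and Lhx8 had similar ratios to each other in tissue and smaller ones in culture. The 2 Zic1 probes (chromosome 9, 90989326 to 90989385 and 90989346 to 90989405) overlap and are not independent. They had log2 signals of 11.37 and 11.71 in KO tissue and 10.81 and 11.17 in WT tissue, and of 12.18 and 12.46 in KO adipocytes and 12.01 and 12.40 in WT adipocytes. Lhx8 had 11.48 and 9.55 in KO tissue and 10.93 and 9.11 in WT tissue on its probes on chromosome 3 (154214886 to 154214945 and 154215364 to 154215423), and 14.15 and 11.88 in KO adipocytes against 14.23 and 11.99 in WT adipocytes. For both genes the tissue samples lay below the culture samples, with KO tissue above WT tissue. The tissue ratios were 0.56 and 0.53 for Zic1 and 0.55 and 0.43 for Lhx8, above 91.6% to 95.1% of kept probes, and they turned to between -0.41 and -0.29 when centred on the spiked-in controls and reached 0.83 to 1.09 without loess. The culture ratios were 0.17 and 0.06 for Zic1 (-0.24 and -0.34 without loess) and -0.07 and -0.11 for Lhx8 (up to 0.07 in the authors' deposited table, and -0.51 on both probes without loess).

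Tbx15, Meox2 and Eya1 had no ratio past 2-fold on either array, except that spike-in centring put Tbx15 at -1.04, -1.20 and -1.03 and the bright Meox2 probe at -1.01 in tissue. Tbx15 had log2 signals of 9.82, 9.79 and 6.73 in KO tissue and 10.02, 10.14 and 6.92 in WT tissue on its 3 probes (chromosome 3, 99149134 to 99149193, 99149413 to 99149472 and 99147841 to 99147900). In culture the same probes had 12.36, 12.30 and 8.68 in KO adipocytes and 12.07, 12.09 and 8.65 in WT adipocytes. The ratios were thus -0.20, -0.36 and -0.19 in tissue, the first pair turning positive without loess and the last in the Feature Extraction ratios, and 0.29, 0.22 and 0.04 in culture, all negative without loess. The third probe was close to background in tissue, at 1.94 times (KO) and 2.22 times (WT) the local background, and carries little weight there.

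Meox2 had the clearest separation of tissue and culture. Its bright probe (chromosome 12, 35014505 to 35014564) had 12.45 in KO tissue and 12.61 in WT tissue, but 7.78 in KO adipocytes and 7.07 in WT adipocytes. The ratio was -0.16 in tissue (0.42 without loess) and 0.71 in culture, the highest of the member probes there, above 94.9% of kept probes and between 0.49 and 0.96 under the alternatives. That ratio came from signals only 4.19 times (KO) and 4.02 times (WT) the local background. The second probe, annotated to a stretch of 10724 bases (chromosome 12, 35002713 to 35013436), had 9.18 in KO tissue and 9.30 in WT tissue. In culture it had 6.48 in KO adipocytes and 6.42 in WT adipocytes, the latter not well above background. These mean signals were only 1.37 times (KO) and 1.78 times (WT) the local background. The fitted culture ratio of 0.06 turned to -0.16 with spike-in centring, so no direction is read from it. A gap between the 2 probes in culture therefore has no exact size, and with Feature Extraction ratios they read 0.96 and 0.83.

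Eya1 was near the detection limit in tissue. Its brighter probe (chromosome 1, 14351185 to 14351244) had log2 signals of 7.82 in KO tissue and 7.79 in WT tissue, and of 10.54 in KO adipocytes and 10.19 in WT adipocytes. The ratios were 0.03 in tissue (-0.81 with spike-in centring) and 0.34 in culture (-0.08 without loess). The other probe (chromosome 1, 14352764 to 14352823) was not well above background in either tissue sample and had a culture ratio of 0.17 (-0.05 with spike-in centring), with 7.22 in KO adipocytes and 7.05 in WT adipocytes.

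**Figure D3:**
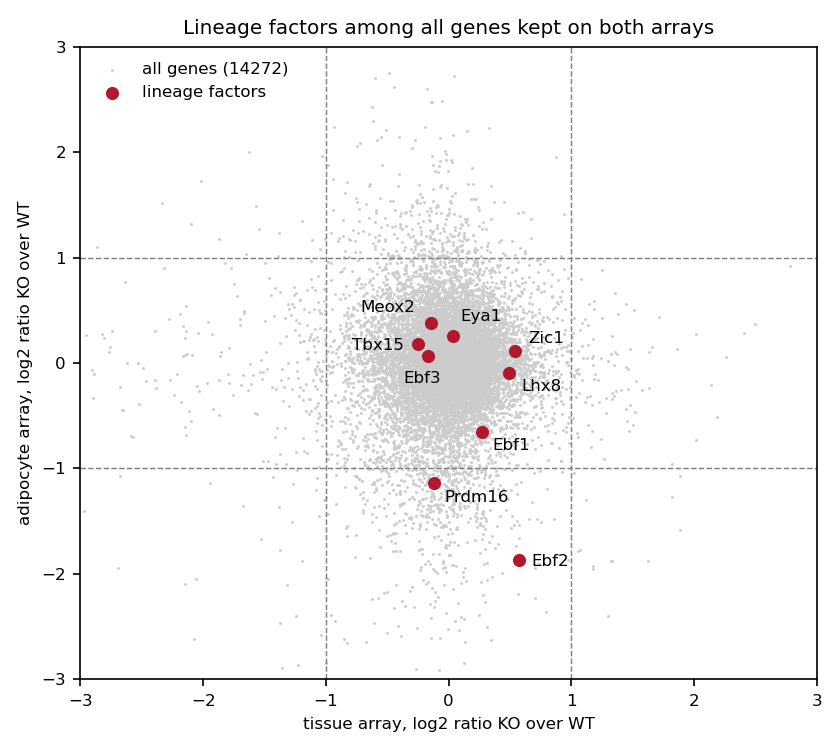
Log2 ratio of KO over WT on the tissue array (x axis) against the adipocyte array (y axis) for the 14272 genes kept on both (grey, those within 3 of 0 drawn) and the 9 lineage factors (red, mean over kept probes), with dashed lines at 2-fold. Ebf2 (0.57 and -1.87) lies at the lower right and Prdm16 (-0.12 and -1.14) straight below the centre, and the other 7 lie within 2-fold on both axes.

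The genes closest to Prdm16 and Ebf2 in pattern were sought by Euclidean distance over 3 values (the ratio on each array and tissue over culture) among 12670 genes detected in all 4 RNA samples. For Prdm16 they were Gmfg (distance 0.20), Map3k1 (0.22) and Mef2c (0.24), with culture ratios of -1.02, -1.11 and -0.92. For Ebf2 they were Ankef1 (0.39), Selenbp1 (0.40) and Cat (0.45), with culture ratios of -1.55, -1.54 and -2.23. With 3 values per gene this is a description of likeness and no more.

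The lower Ebf2, Prdm16 and Ebf1 signals in KO adipocytes came with lower signals of most fat cell genes. All 16 mature adipocyte genes passed 2-fold on the lower side in KO adipocytes (median -3.93), with Fabp4 at -5.58 and Adipoq at -5.22. Among all genes 4.18% were lower by 2-fold or more and 2.49% higher. The summed signal of the 16 adipocyte genes was 43976 in KO adipocytes and 872098 in WT adipocytes, on a linear scale. Ebf2 (-1.87) and Prdm16 (-1.14) lay above the highest of these 16, which was at -2.15. Macrophage markers were lower as well, with 7 of 10 past 2-fold and summed signals of 78964 in KO adipocytes and 396168 in WT adipocytes, whereas 7 of 11 smooth muscle genes were higher in KO by 2-fold or more (summed signals of 396774 in KO adipocytes and 107775 in WT adipocytes). None of the 16, 10 and 11 genes was below background in both samples. Fewer cells of a type and less RNA per cell cannot be told apart in such samples, and the part of these markers in the ratios of Ebf2, Prdm16 and Ebf1 was not tested.

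Known partners and regulators of Prdm16 split in the same culture. Of 22 kept in culture, 5 lay 2-fold or more below WT in KO adipocytes and 1 above (median -0.27). In tissue none of 23 did either (median 0.18), where 2.44% of all genes were lower by 2-fold or more and 0.801% higher. The lower ones were Pparg (-3.49), the master regulator of fat cells, its coactivators Ppargc1b (-2.61) and Ppargc1a (-2.31), Cebpa (-2.15) and Ppara (-1.08), and the higher one was the forkhead factor Foxc2 (1.55). The DNA-binding partner of Prdm16 in early brown commitment, Cebpb, was at -0.48. In tissue the same genes were at 0.82 (Pparg), -0.14 (Ppargc1b), -0.35 (Ppargc1a), 0.03 (Cebpa), 0.24 (Ppara) and 0.20 (Cebpb). Foxc2 was close to background, with log2 signals of 6.78 in KO tissue and 6.60 in WT tissue, the latter not well above it. Its fitted tissue ratio of 0.18 is smaller than the 0.84 that spike-in centring takes off, so no direction is read from it. Pparg and Cebpa also belong to the mature adipocyte list, and Ppargc1a and Ppara to the thermogenic list.

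Thermogenic genes, which include targets of Prdm16 and Ebf2, were lower in KO in part on both arrays. In tissue 7 of 18 lay 2-fold or more below WT and 1 above (median -0.50, and -0.09 without loess), with Ucp1, the uncoupling protein of brown fat, at -1.84, Elovl3 at -2.14, Fabp3 at -2.83, Otop1 at -1.38 and Cidea, a lipid droplet protein, at 1.01, while Prdm16 was at -0.12 and Ebf2 at 0.57. In culture 10 of 18 lay 2-fold or more below WT and none above (median -1.21), with Ucp1 at -3.78, Cidea at -3.38, Plin5 at -2.58 and Otop1 at least 5.52-fold lower. Skeletal muscle genes were lower on the tissue array too, 20 of 21 by at least 2-fold (Acta1 -2.33), with summed signals of 126965 in KO tissue and 760408 in WT tissue. Fabp3 is also abundant in muscle, and the part of muscle RNA in any tissue ratio given here was not tested.

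White-selective genes did not move one way. In culture 4 of 14 lay 2-fold or more below WT in KO (median -0.25), namely the adipokines Retn (-3.04) and Lep (at least 5.91-fold lower), Agt (-1.45) and Slc7a10 (at least 2.43-fold lower), and 1 was higher, the posterior homeobox gene Hoxc9 (1.88). In tissue none of 10 passed 2-fold (median -0.25, turning to 0.21 without loess, with Psat1 at -0.78 and Slc7a10 at -0.70). Of the genes listed as beige-selective, 2 of 9 were lower in culture, Slc36a2 (-3.54) and Cd40 (-1.14), and none of 9 in tissue. The list was meant for inducible thermogenic cells of white depots, but its genes are not limited to them. Slc36a2 was well above background in brown fat tissue of both genotypes, 5.48 higher there than in culture on the log2 scale. Its culture ratio is therefore not read as a change in beige cells.

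Close relatives of the 9 factors, such as Ebf4, Meox1 and Eya4, had no fitted ratio past 2-fold among 15 kept in tissue (median -0.05) or 17 kept in culture (median 0.32, highest Lhx9 at 0.90 and Tbx20 at 0.86). Zic5 was not well above background in KO tissue and has only a bound there, at least 1.52-fold lower. The dermomyotome and early muscle list, the embryonic setting in which Eya1 and Meox2 act, held 1 gene of 10 past 2-fold on the lower side in tissue, the myogenic factor Myog (-1.96), and 1 of 13 higher in culture, Myf5, the early myogenic factor also expressed in the precursors of brown fat, at least 2.07-fold. The list plot places the 9 factors beside these groups.

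**Figure D4:**
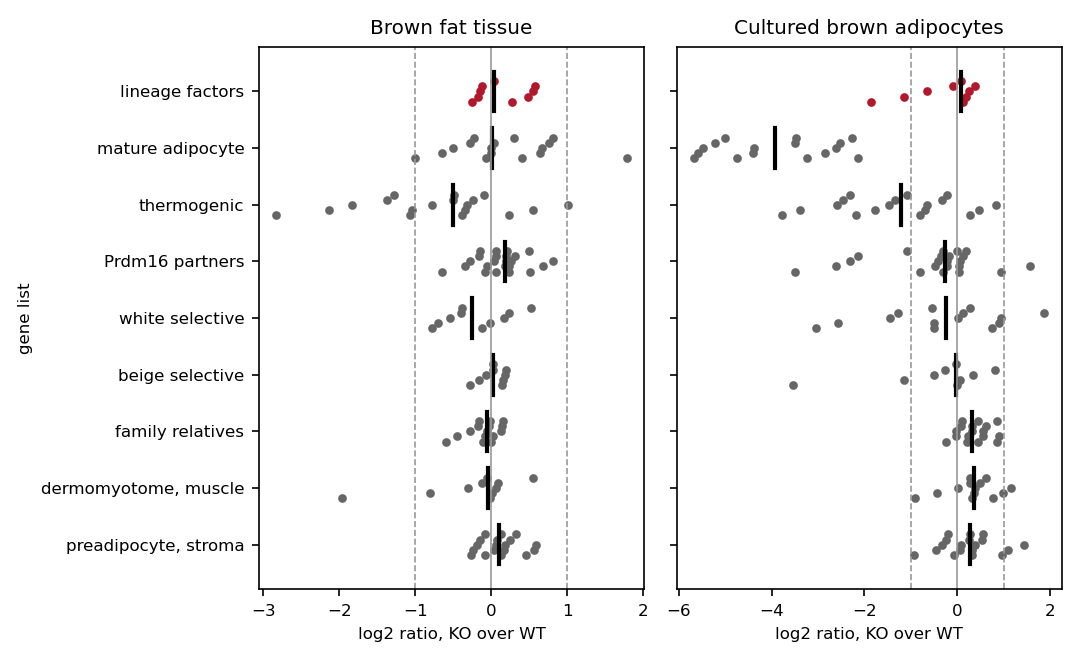
Log2 ratio of KO over WT (x axis) of the genes in each list (y axis, 1 point per gene, black line at the median) on the tissue array (left) and the adipocyte array (right), whose x axes differ in range, with dashed lines at 2-fold. The lineage factors (red) centre near 0 on both arrays, while the mature adipocyte genes centre at 0.01 in tissue and at -3.93 in culture.

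Levels in tissue and culture were compared through the mean log2 signal of both channels, so that each side holds KO and WT and both dyes. The arrays were scanned and normalised separately. All 17 probes had the same sign in both dyes, as did 85.4% of all kept probes. Higher in tissue by 2-fold or more were 5 probes and lower in tissue 7, where 17% and 17.2% of all kept probes were so.

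Meox2 led the tissue side, its bright probe being at 5.11 (34.5-fold higher), above 99.5% of all kept probes. Its second probe had a fitted value of 2.79, which is not exact because WT adipocytes were not well above background there, and 4.67 with processed signals. Ebf2 followed at 2.75, Ebf1 at 0.59 and 1.88 and Prdm16 at 1.50. Since KO adipocytes were low in Ebf2, its distance was 3.97 between the KO samples and 1.53 between the WT samples. For Prdm16 it was 2.01 between the KO samples and 0.99 between the WT samples. The bright Ebf3 probe was at 0.88, with 0.65 between the KO samples and a value just past 2-fold between the WT samples. The dim Ebf3 probe, not well above background in KO adipocytes, gave no exact value (0.24 as fitted and 1.49 with processed signals). The value of Ebf1 probe 1 turned to -0.16 when arrays were only centred on their medians.

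On the culture side were Lhx8 (-2.98 and -2.61), Tbx15 (-2.29, -2.23 and -1.84), Eya1 (-2.56 on the brighter probe) and Zic1 (-1.01 and -0.99). The third Tbx15 value, from the probe close to background in tissue, was -2.95 with processed signals. On the dim Eya1 probe culture was at least 1.77-fold higher than tissue. The factors used as markers of classical brown fat were thus on opposite sides, Ebf2 and Prdm16 higher in tissue and Zic1, Lhx8 and Eya1 higher in culture. Cell type markers also differed between tissue and culture. Mature adipocyte genes had a median of 3.21 in tissue over culture, thermogenic genes 5.24, endothelial genes 5.93 and skeletal muscle genes 4.05. Macrophage genes were at -2.40, preadipocyte and stroma genes at -0.67, and all named genes at -0.02. The part of these cell types in the member values was not tested.

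Among the 18 relatives with a value, the median was 0.17, with 4 higher in tissue by 2-fold or more and 3 lower, where 16.6% and 17.3% of all genes were so. Meox1 (2.53) lay on the side of Meox2 and Eya4 (-2.28) on that of Eya1, whereas Eya2 (-0.31) and Eya3 (0.14) were near 0. Relatives of Tbx15 lay on both sides. Tbx3 (2.35), Tbx2 (1.94) and Tbx5 (1.56) lay opposite to it, and Tbx20 (-1.28), Tbx1 (-0.75) and Tbx18 (-0.72) on its side. Lhx2 (-3.75) and Lhx9 (-0.98) lay on the side of Lhx8, and Lhx6 (0.19) was near 0. The values of Tbx20, Lhx2 and Lhx9, not well above background in tissue, and of Tbx5, not so in WT adipocytes, are not exact.

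**Figure D5:**
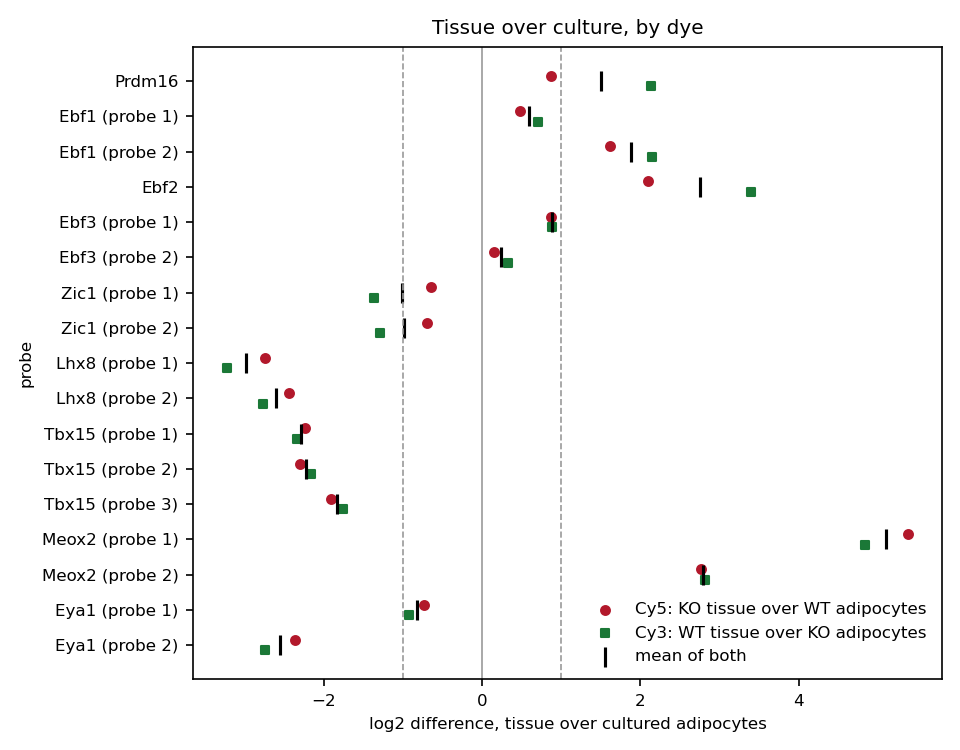
Log2 difference of tissue over cultured adipocytes (x axis) for each of the 17 probes (y axis), for the Cy5 channels (KO tissue over WT adipocytes), for the Cy3 channels (WT tissue over KO adipocytes) and as their mean (black bar), with dashed lines at 2-fold. Meox2 lies farthest to the right and Lhx8 farthest to the left, and the dyes lie farthest apart for Ebf2 and Prdm16.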

How the data were processed

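RNA of brown adipose tissue and of cultured brown adipocytes was extracted with Trizol and hybridised on two-colour Agilent arrays, per the labels' protocols. The scanner output as deposited gives spot intensity in both dyes and a log10 ratio (red over green), made with Agilent Feature Extraction 9.5.1.1 per the file headers. A value table deposited by the authors also holds log10 ratios, equal to Feature Extraction's within 0.0165 on the log2 scale once turned to KO over WT. It leaves 7623 gene spots empty in tissue and 6968 in culture, for reasons not stated, and its medians are 0.09 and 0.02 on the log2 scale. Further deposited copies of the arrays were not used here.

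Spots with an outlier flag (1215 in tissue and 203 in culture, of 43379 gene spots each) were left out. Mean signals were corrected with normexp (saddle, offset 50, controls included) and normalised by loess with weight 0 for the 1639 control spots, in limma 3.58.1 under R 4.3.3. Aquantile scaling set channel levels side by side. Kept probes were averaged for each gene, and lists were summarised by medians. "At least N-fold" is a bound: one channel was not well above background and was replaced by the higher of its own value and the lowest signal well above background. Probes were named from the RefSeq table of GRCm38.p6 by accession (22944), symbol (6664) or synonym (3108), and 8458 stayed unnamed. The background correction and loess steps were tested on simulated data, with known changes put into bright probes only. Whether probes cover particular exons was not looked up, the coordinate build being not given in the sources used here.

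The members, the 14 gene lists and the tests were chosen with earlier results of these data known. Named were all member probes, Prkg1, up to 4 members of each list past 2-fold per array (otherwise the 2 with the largest ratio), 10 fixed marker genes (not all reported here), and the 3 nearest genes. Ppara, Foxc2, Slc7a10 in culture, Ebf4, Meox1, Eya2, Eya3, Eya4, the relatives of Tbx15 and Lhx8 and the sex markers were named after their values were seen. Alternatives were Feature Extraction's ratios, the deposited table, offset 0, no loess, outlier spots kept, centring on spiked-in controls, further flags, other filters and other scalings between arrays.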

Additional observations from a re-analysis of the deposited data

Results flagged for a closer look

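On 6 probes of 4 genes the ratio of KO over WT had opposite signs in tissue and culture, each more than 2 times the spot-to-spot SD away from 0. The share of all kept probes that meet this rule is not given here, so the count is not read as particular to these genes. The difference between tissue and culture was not tested, since each has 1 array. The Ebf2 probe was at 0.57 in tissue and -1.87 in culture. Ebf1 was at 0.33 in tissue and -0.56 in culture on probe 1, and at 0.21 in tissue and -0.74 in culture on probe 2. The bright Ebf3 probe was at -0.23 in tissue and 0.22 in culture. Tbx15 was at -0.20 in tissue and 0.29 in culture on probe 1, and at -0.36 in tissue and 0.22 in culture on probe 2. The opposite signs depend on the centring. With spike-in centring Ebf2 was at -0.27 in tissue and -2.09 in culture. Both Ebf1 probes, the bright Ebf3 probe and Tbx15 probe 2 were then also below 0 on both arrays, the last 2 only just so in culture. Tbx15 probe 1 stayed opposite (-1.04 in tissue and 0.07 in culture). KO was in Cy5 in tissue and in Cy3 in culture, so a dye bias of a single probe would also turn its sign between the arrays. Its part was not tested.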

How the results depend on the processing

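No paired analysis was possible because each comparison has 1 array. The 2-fold lower culture ratios of Ebf2 and Prdm16 held under all 7 alternatives to the ratio processing. Tissue ratios did not hold their sign: 15 of 16 tissue probes and 12 of 17 culture probes changed sign under at least 1 alternative, and 1 of 17 did so for tissue over culture. The share of all kept probes that changed sign is not given here, so these counts are not read as particular to the members. The median of all genes shifted to 0.25 in tissue and -0.26 in culture without loess, and to -0.84 and -0.22 with spike-in centring. In tissue, spike-in centring gave 5 member probes at least 2-fold lower, 3 of Tbx15 and the bright ones of Ebf3 and Meox2 (0 as reported), and 5 lists with a median past 2-fold (1 as reported), and no loess gave 4 member probes at least 2-fold higher (0 as reported). Genes at least 2-fold lower in tissue (381 as reported) numbered 950 with Feature Extraction ratios, 949 in the deposited table, 835 with offset 0, 98 with outlier spots kept and 4575 with spike-in centring. Those higher (125) numbered 1402, 1397, 385, 38 and 17 under these settings and 672 without loess. In culture, genes lower (631) numbered 955 with Feature Extraction ratios, 953 in the deposited table, 1246 without loess and 974 with spike-in centring. Those higher (377) numbered 876, 874, 194 and 205 under these settings and 617 with offset 0. The cause of these shifts was not tested. Signals close to background limit Eya1 and the third Tbx15 probe in tissue, Meox2 in culture and the dim Ebf3 probe on both arrays.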
